A study of Mus musculus with 9 samples.

Results

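The TWEAK receptor gene Tnfrsf12a and genes of the NF-kB pathway were read across control, MCU knockout and MCUb knockout muscle. The set names 9 genes: the ligand Tnfsf12, its receptor Tnfrsf12a, the adaptor Traf2, the NF-kB subunits Nfkb1, Nfkb2, Rela and Relb, and the IkB proteins Nfkbia and Nfkbiz. The platform's annotation gave a probe set for 7 of them, each with 1 probe set, out of 19505 genes with a probe set; Tnfsf12 and Nfkb1 were not analysed here. The set was chosen by measured values: in an earlier look at these arrays Tnfrsf12a was among the probe sets past the threshold between MCUb knockout and control, and Nfkbiz was also lower there. The values of that comparison are therefore given as a description, without a test.

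The arrays hold RNA of whole tibialis anterior, a fast muscle of the lower leg, from mice 2 months old on the C57/BL6 strain background. There were 3 arrays for each of 3 genotypes: control (MCU+/+/MCUb+/+), MCU knockout (MCU-/-/MCUb+/+) and MCUb knockout (MCU+/+/MCUb-/-). MCU is the pore of the mitochondrial calcium uniporter, the channel through which calcium enters the matrix, and MCUb is its paralogue in the same complex; the series title puts the question of how MCUb bears on oxidative phosphorylation. Whether the genes were deleted in the whole body or in muscle alone, and whether each array stands for an animal of its own, was not given in the sources used here, so every p-value rests on a spread that may be technical.

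TWEAK is a cytokine of the tumour necrosis factor family, made as a membrane protein and shed. It binds Tnfrsf12a, a small receptor that has no enzyme activity and recruits TRAF adaptors, and this leads to release of NF-kB dimers in both the canonical branch (Rela with Nfkb1, held back by Nfkbia) and the non-canonical branch (Relb with Nfkb2). In skeletal muscle the receptor is known as the inducible part of the axis. It is described as scarce in resting adult muscle and as induced by denervation, injury and growth factors, and its activation promotes wasting.

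The promoters of Tnfrsf12a, Nfkb2 and Nfkbia are shown because the first belongs to the gene with the widest spread between genotypes and the others to classical targets of NF-kB itself. RefSeq's promoter table (GRCm38.p6) held entries for 5 of the 9 genes, in 7 windows (3 of them for Nfkb2); Tnfsf12, Nfkb1, Relb and Nfkbiz had none. Given here are the 250 bases before the annotated start, 5′ to 3′ on the gene's strand: chr17:23677450-23677699 (minus strand) for Tnfrsf12a, chr12:55492648-55492897 (minus strand) for Nfkbia and chr19:46304487-46304736 (plus strand) for the most upstream start of Nfkb2. Capitals mark matches, on either strand, to the NF-kB consensus or to the AP-1 motif TGANTCA.
Tnfrsf12a: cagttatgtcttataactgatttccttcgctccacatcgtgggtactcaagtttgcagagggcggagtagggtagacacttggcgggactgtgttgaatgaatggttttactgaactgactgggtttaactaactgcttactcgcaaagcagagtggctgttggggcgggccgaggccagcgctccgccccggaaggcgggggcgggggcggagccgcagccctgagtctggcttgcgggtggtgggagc
Nfkbia: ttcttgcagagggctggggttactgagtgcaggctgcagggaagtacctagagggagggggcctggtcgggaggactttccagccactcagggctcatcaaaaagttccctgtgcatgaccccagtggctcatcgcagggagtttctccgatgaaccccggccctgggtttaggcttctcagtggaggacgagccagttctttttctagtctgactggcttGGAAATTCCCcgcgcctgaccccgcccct
Nfkb2: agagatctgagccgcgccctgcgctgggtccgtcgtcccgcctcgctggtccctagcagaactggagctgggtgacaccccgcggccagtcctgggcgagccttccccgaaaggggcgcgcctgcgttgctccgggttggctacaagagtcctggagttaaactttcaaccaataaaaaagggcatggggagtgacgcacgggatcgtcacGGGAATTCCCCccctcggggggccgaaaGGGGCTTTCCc
The Nfkbia window held 1 match to the NF-kB consensus, starting 29 bases before the annotated start. This Nfkb2 window held 4 matches, counted on both strands, of which 3 overlap in 1 palindromic stretch. The windows of Tnfrsf12a, Traf2 and Rela held neither motif. Over all 32851 windows of 300 bases, which also take in 50 bases after the start, 8.46% held the NF-kB consensus and 7.81% the AP-1 motif. A match in letters does not show that a factor binds there, and the lack of one says only that these letters are not in the window.

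Values are the deposited log2 signals. The background limit of an array was the 95th percentile of its 23 background sets and lay between 5.87 and 5.92; from 45.3% to 45.9% of 22206 probe sets exceeded it. Mcu fell from 10.60 ± 0.31 (SD, n = 3 here and below) in control to 6.94 ± 0.13 in the MCU knockout (adjusted p = 3.47e-05 in limma), still above background, and was 10.86 ± 0.18 in the MCUb knockout; Mcub was not analysed here. Control replicate 3 stood apart on the first principal component (-70.8, against -20.3 to 21.9 on the other 8 arrays). The Y-linked genes Uty and Kdm5d had a mean level of 7.24 to 7.80 on MCU knockout replicates 2 and 3 and MCUb knockout replicate 1, and of 3.01 to 3.89 on the other 6. All 12 skeletal muscle fibre markers, Acta1, Ckm and Myh4 among them, were above background on all 9 arrays.

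Tnfrsf12a (probe set TC1700001598.mm.2, chromosome 17) was highest in control muscle, lower in MCU knockout muscle and lowest in MCUb knockout muscle. Its log2 level was 14.62, 14.25 and 13.36 on the control arrays, 13.20, 12.80 and 13.33 on the MCU knockout arrays and 10.81, 11.63 and 10.75 on the MCUb knockout arrays. No pair of groups overlapped, but control and MCU knockout nearly touched: the lowest control, replicate 3, read 13.36 and the highest MCU knockout array 13.33. Group means were 14.08 ± 0.65, 13.11 ± 0.28 and 11.07 ± 0.49. The transcript was far above background on every array, also where it was lowest. The control arrays thus did not show the scarcity described for resting muscle, and the reason was not tested.

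The MCUb knockout mean lay 3.01 below control on the log2 scale (SE 0.34), a ratio of 8.06. This is the difference that chose the gene. Over 18 alternative settings it ran from -3.37 to -2.74.

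**Figure D1:**
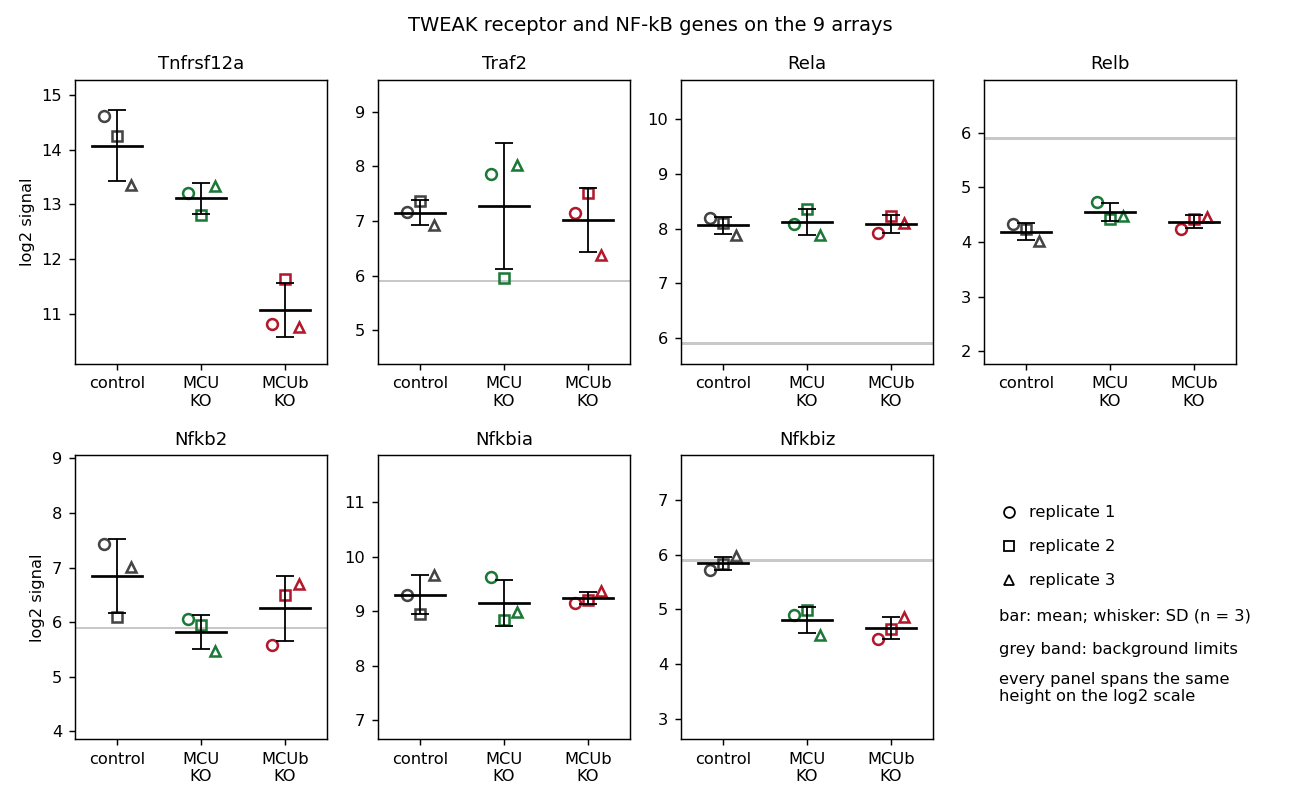
Log2 signal (vertical axis) of the 7 measured genes on each array, by genotype; symbols mark replicates, the long bar the mean, whiskers the SD (n = 3), and the grey band the background limits of 5.87 to 5.92. Tnfrsf12a steps down from a mean of 14.08 to 13.11 and 11.07, Nfkbiz lies at or below background, and the groups of Rela and of Nfkbia overlap.

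Between the knockouts, Tnfrsf12a was higher in MCU knockout than in MCUb knockout muscle. The log2 difference was 2.05 (SE 0.34, 95% interval 1.31 to 2.78), 4.13-fold, with an adjusted p of 0.0489 in limma over all probe sets. The MCUb knockout arrays that chose the gene enter this comparison too. The call lay close to the threshold, and the adjusted p ran from 0.012 to 0.976 over 18 alternatives. It missed the threshold without MCU knockout replicate 1 (adjusted p = 0.135), 2 (0.0981) or 3 (0.290), without MCUb knockout replicate 1 (0.185) or 3 (0.271) and without control replicate 2 (0.0807). When the fit took in the Y-linked level, the difference was 2.17 (adjusted p = 0.0664), and on the 6 arrays where that level is low it was 2.01 (0.976), where the MCU knockout keeps 1 array. Within the MCUb knockout group, the array with the high Y-linked level read 10.81, between the other two.

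Between MCU knockout and control, the difference in Tnfrsf12a did not pass. It was -0.96 on the log2 scale (SE 0.34, 95% interval -1.70 to -0.23, adjusted p = 0.393). The two-sided p of an exact permutation test was 0.1, its minimum with 3 arrays in each group. The difference was -1.32 without control replicate 3 and -0.69 without control replicate 1, and it passed under none of the 18 alternatives (adjusted p of 0.230 to 0.983). Both comparisons with control share the control arrays.

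**Figure D2:**
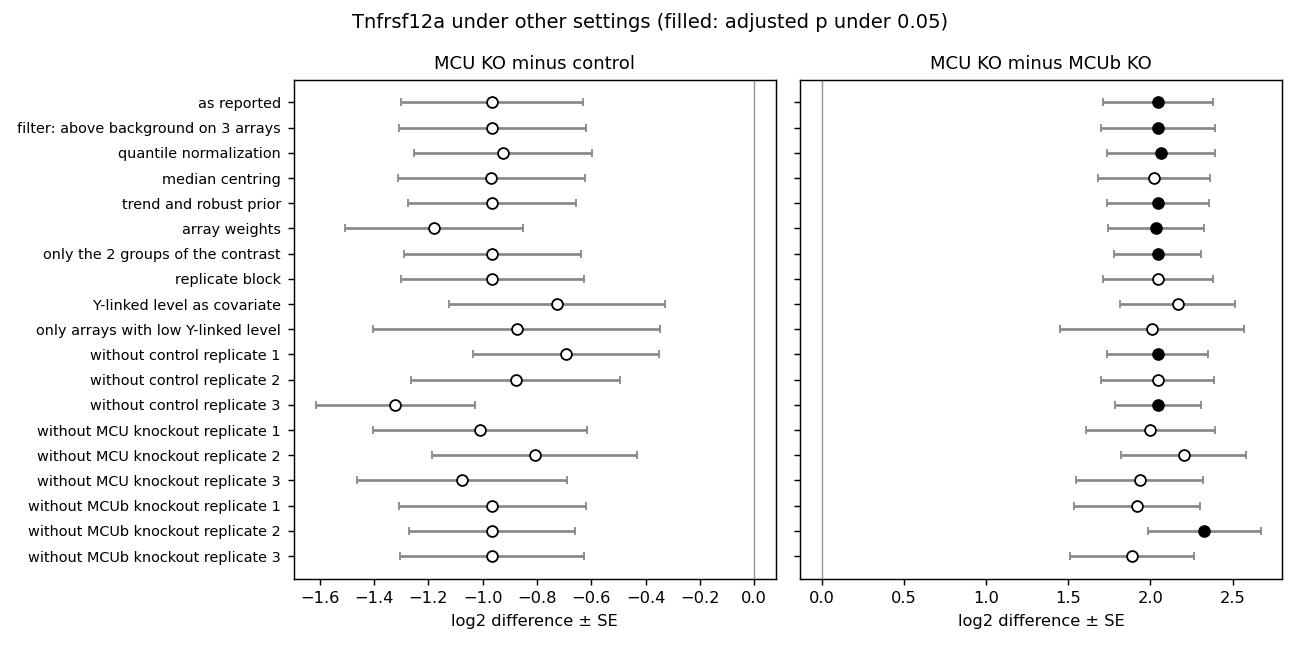
Log2 difference of Tnfrsf12a ± SE (horizontal axis) as reported and under each of 18 alternative settings (rows), for MCU knockout minus control (left) and MCU knockout minus MCUb knockout (right); filled points had an adjusted p under 0.05. All points keep their side of 0; on the right 8 of the 18 alternatives are filled, on the left none.

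Traf2 (TC0200003157.mm.2, chromosome 2), the adaptor that couples the receptor to NF-kB, had no common shift but a wide spread in the MCU knockout. It read 7.16, 7.37 and 6.93 on the control arrays, 7.86, 5.95 and 8.02 on the MCU knockout arrays and 7.14, 7.52 and 6.37 on the MCUb knockout arrays. MCU knockout replicate 2 was the lowest of all 9, and the SD of that group was 1.15 against 0.22 in control. The difference between MCU knockout and control was 0.12 (SE 0.48, 95% interval -0.93 to 1.18, adjusted p = 0.953), and between the knockouts 0.26 (SE 0.48, adjusted p = 1). The mean of the MCUb knockout lay 0.14 below control.

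Of the canonical pathway, Rela and Nfkbia had overlapping arrays in all 3 genotypes. Rela (TC1900000078.mm.2, chromosome 19), the main transactivating subunit, lay between 7.89 and 8.37 on all 9 arrays, with means of 8.06 ± 0.16 in control, 8.12 ± 0.24 in MCU knockout and 8.08 ± 0.16 in MCUb knockout. Its difference between MCU knockout and control was 0.05 (SE 0.19, 95% interval -0.37 to 0.47, adjusted p = 0.944). Nfkbia (TC1200001768.mm.2, chromosome 12), which holds Rela in the cytoplasm and is itself induced by it, lay between 8.85 and 9.66. Its means were 9.30 ± 0.36, 9.15 ± 0.42 and 9.24 ± 0.11 in the same order, with overlapping arrays in every pair. The difference between MCU knockout and control was -0.15 (SE 0.25, 95% interval -0.69 to 0.40, adjusted p = 0.865). For Traf2, Rela and Nfkbia the sign of the differences with MCU knockout turned when single arrays were left out, so no direction is given for them.

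Of the non-canonical pathway, Nfkb2 lay near the background limit and Relb below it. Nfkb2 (TC1900000689.mm.2, chromosome 19), the precursor of the partner of Relb, read 7.43, 6.10 and 7.01 on the control arrays, 6.05, 5.94 and 5.47 on the MCU knockout arrays and 5.58, 6.49 and 6.70 on the MCUb knockout arrays. Every control array lay above every MCU knockout array, though control replicate 2 read 6.10 and the nearest MCU knockout array 6.05, and 1 array of each knockout was not above background. The difference between MCU knockout and control was -1.02 (SE 0.36, 95% interval -1.83 to -0.22) and did not pass (adjusted p = 0.405, and 0.102 to 0.983 over 18 alternatives). No fold is given, since the MCU knockout mean of 5.82 ± 0.31 lay under the background limits. The MCUb knockout mean of 6.26 ± 0.59 overlapped with both other groups. Relb (TC0700002491.mm.2, chromosome 7) was not above background on any array, with 4.02 to 4.73, so no fold is given; the difference between MCU knockout and control was 0.36 (SE 0.18, adjusted p = 0.525).

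Nfkbiz (TC1600001742.mm.2, chromosome 16), an IkB protein of the nucleus that acts as a cofactor of NF-kB at secondary target genes, was dim throughout. It read 5.72, 5.83 and 5.97 on the control arrays, where replicate 3 alone was above background. It read 4.90, 4.98 and 4.53 on the MCU knockout arrays and 4.47, 4.65 and 4.86 on the MCUb knockout arrays, none above background. Both knockouts lay below every control array and overlapped with each other. Since the signal was at the limit in control and under it in the knockouts, no fold is given. The measured difference between MCU knockout and control was -1.03 (SE 0.19, adjusted p = 0.101, and 0.0773 to 0.920 over 17 alternatives), that between MCUb knockout and control was -1.18 (SE 0.19, a value that helped choose the gene), and that between the knockouts was 0.15 (SE 0.19, 95% interval -0.27 to 0.57, adjusted p = 1).

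**Figure D3:**
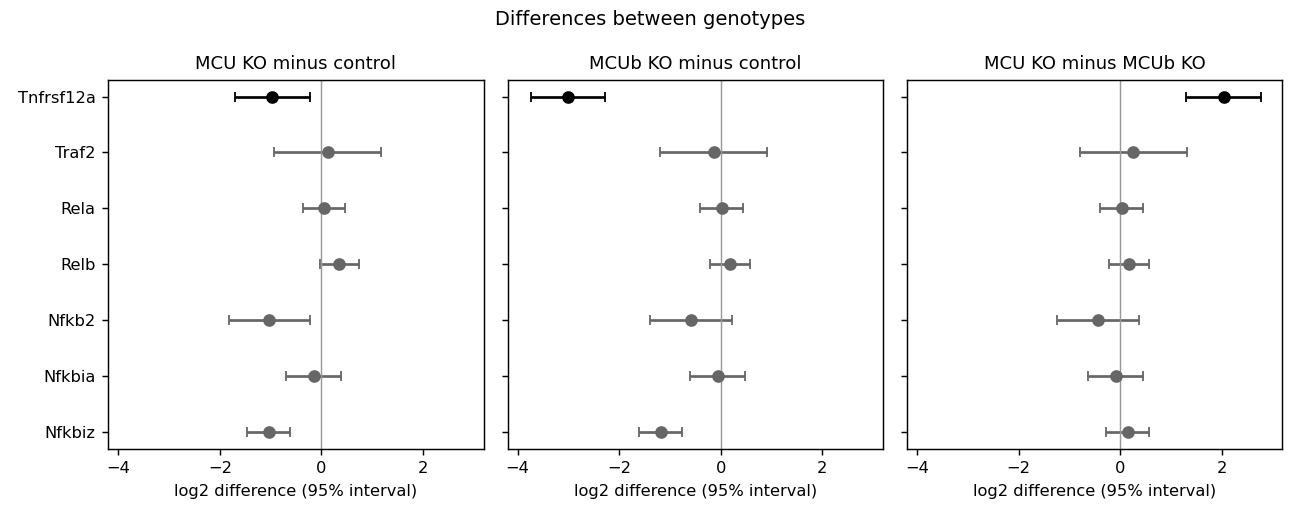
Log2 difference (horizontal axis) with its 95% interval for the 7 measured genes (rows) in the 3 comparisons, from 1 fit of all 9 arrays. Tnfrsf12a is at -0.96, -3.01 and 2.05 from left to right; the middle comparison is the one that chose Tnfrsf12a and Nfkbiz and is shown as a description.

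Counted over the 7 measured genes, 0 had an adjusted p under 0.05 in the MCU knockout against control, where 0.14% of all probe sets did; 3 had an unadjusted p under 0.05 (Tnfrsf12a, Nfkb2 and Nfkbiz), against 10.1% of all probe sets. In 4 of the 7 (these and Relb) the groups did not overlap, against 13.4%. Tnfrsf12a and Nfkbiz were chosen on a comparison with the same controls, so these counts are no support for the set. Between MCUb knockout and control, 1 passed (0.0225% of all), 2 had an unadjusted p under 0.05 (8.11% of all) and 2 did not overlap (12.8% of all), which are the genes that led to the choice, and nothing is read from these counts. Between the knockouts Tnfrsf12a alone passed (0.158% of all), alone had an unadjusted p under 0.05 (5.7% of all) and alone had groups that did not overlap (12.8% of all). The MCUb knockout arrays that chose Tnfrsf12a enter here too, so these counts do not single it out independently of the choice. The largest difference of another of the 7 between the knockouts was 0.43, for Nfkb2.

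The other genes of the pathway were read from 8 lists with 161 genes, of which 152 had a probe set and 89 were above background on at least 3 arrays. In limma 0 of the 152 passed in any of the 3 comparisons. Of all probe sets 0.14% passed between MCU knockout and control, 0.0225% between MCUb knockout and control and 0.158% between the knockouts. With shares this small, a count of 0 says little about the lists. At an unadjusted p under 0.05 there were 8 higher and 10 lower between MCU knockout and control (11.8%, against 10.1% of all probe sets), 4 higher and 9 lower between MCUb knockout and control (8.55%, against 8.11%), and 4 higher and 4 lower between the knockouts (5.26%, against 5.7%). These shares are near the background. The median log2 difference of the 152 was 0.00, 0.01 and 0.03 in that order, against -0.02, -0.03 and 0.01 over all probe sets.

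Among ligands of the tumour necrosis factor family 16 of 17 were measured, and 11 of these were above background on no array. Tnfsf14 and Tnfsf10, a lymphotoxin-receptor ligand and the death ligand TRAIL, were the ligands above background on at least 3 arrays. Their differences from control were 0.16 and -0.19 in the MCU knockout and 0.31 and 0.43 in the MCUb knockout (adjusted p of 0.709 or more). Tnfsf10 spread most in control, where replicate 3 read 5.37 and the others 7.40 and 8.08. The groups of 5 of the 16 ligands did not overlap between MCUb knockout and control (31.2%, against 12.8% of all probe sets), and 1 of the 16 had an unadjusted p under 0.05 there (6.25%, against 8.11%). These 5, named after their values were seen, were Tnfsf11, Tnfsf14, Tnfsf18, Cd70 and Eda. Tnfsf11, Tnfsf18 and Cd70 were above background on no array, and Eda on no control or MCUb knockout array. Tnfsf14 was above background on all MCUb knockout arrays but on no control array. The share is thus made up of signals not above background in control, and no shift of the ligands is read from it.

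The receptor list had 24 measured genes and also holds Cd163, a macrophage scavenger receptor outside the family. Of these 24, 4 had an unadjusted p under 0.05 between MCU knockout and control (16.7%, against 10.1% of all probe sets) and 2 between MCUb knockout and control (8.33%, against 8.11%). Tnfrsf19, also called TROY, had a mean of 8.87 ± 0.18 in control, 8.11 ± 0.39 in MCU knockout and 7.86 ± 0.22 in MCUb knockout. Its difference was -0.77 (SE 0.23, adjusted p = 0.341) and -1.02 (SE 0.23, adjusted p = 0.443), and no knockout array reached the lowest control array. Tnfrsf18, the co-stimulatory receptor GITR, read 7.36, 6.38 and 7.22 in control against 5.85, 5.54 and 5.61 in the MCUb knockout, where no array was above background; the measured difference was -1.32 (adjusted p = 0.469). Tnfrsf4, the co-stimulatory receptor OX40 of T cells, was at -1.10 in the MCU knockout, where 1 of 3 arrays was above background (adjusted p = 0.345), and -0.29 in the MCUb knockout (adjusted p = 0.827).

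Adaptors and kinases downstream of the receptor did not pass. Of 15 measured adaptors and ubiquitin ligases 0 had an unadjusted p under 0.05 in either comparison with control (against 10.1% and 8.11% of all probe sets), and the groups of 0 did not overlap (against 13.4% and 12.8%). Birc2 and Birc3, the ubiquitin ligases cIAP that keep the non-canonical kinase low, were at 0.51 for Birc2 in the MCU knockout (adjusted p = 0.603) and -0.72 for Birc3 in the MCUb knockout, where 1 of 3 arrays was above background (adjusted p = 0.629). Fadd, the death-domain adaptor, was at -0.32 in the MCU knockout (adjusted p = 0.620), and Sharpin, of the linear ubiquitin ligase, at -0.42 in the MCUb knockout (adjusted p = 0.634). Of 11 measured kinases and their partners, 1 in the MCU knockout (9.09%, against 10.1% of all probe sets) and 0 in the MCUb knockout (against 8.11%) had an unadjusted p under 0.05. The 1 gene, named after its value was seen, was Ikbkg, which was above background on no array. Ikbkb, the catalytic IkB kinase of the canonical branch, was at 0.42 in the MCU knockout (SE 0.31, adjusted p = 0.676). Tab3, an adaptor of the upstream kinase, was at 0.37 and 0.55 in MCU and MCUb knockout, and Map3k3 at 0.65 in the MCUb knockout (adjusted p = 0.619).

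Of 16 other subunits and inhibitors, 3 had an unadjusted p under 0.05 between MCU knockout and control (18.8%, against 10.1% of all probe sets). Between MCUb knockout and control there were 2 (12.5%, against 8.11%). Groups did not overlap for 4 (25%, against 13.4%) and 2 (12.5%, against 12.8%) in the same order. Among the 16, Otulin, the protease that removes linear ubiquitin chains, had the smallest p in both comparisons with control. It read 9.06, 9.06 and 8.54 in control, 7.47, 8.13 and 7.78 in MCU knockout and 7.42, 8.28 and 7.93 in MCUb knockout. All 6 knockout arrays lay below all controls, with differences of -1.09 (SE 0.27, adjusted p = 0.250) and -1.01 (SE 0.27, adjusted p = 0.469). Tnip2, a partner of the inhibitor A20, was at 0.66 in the MCU knockout (adjusted p = 0.412), and Rel, the lymphoid subunit, at -0.68 in the MCUb knockout (adjusted p = 0.577).

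Of the 30 NF-kB target genes, all measured, 13 were above background on no array. At an unadjusted p under 0.05 there were 2 between MCU knockout and control, both with higher means in the knockout (6.67%, against 10.1% of all probe sets), and 3 between MCUb knockout and control, 1 higher and 2 lower (10%, against 8.11%). Bcl2l1, the anti-apoptotic BCL-XL, read 6.42, 6.75 and 6.08 in control, 7.57, 7.56 and 7.75 in MCU knockout and 7.35, 7.61 and 7.21 in MCUb knockout. No control array reached the lowest knockout array. The differences were 1.22 (SE 0.21, adjusted p = 0.0678) and 0.98 (SE 0.21, adjusted p = 0.385). Bcl2l1 passed between MCU knockout and control after quantile normalization (adjusted p = 0.0470) or without control replicate 2 (0.0296). It passed under no other of the 18 alternatives. Gadd45b, a stress-inducible regulator of MAP kinases, was at -1.22 in the MCUb knockout (SE 0.33, adjusted p = 0.477), and Plau, the urokinase plasminogen activator, at 0.79 in the MCU knockout (adjusted p = 0.474).

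**Figure D4:**
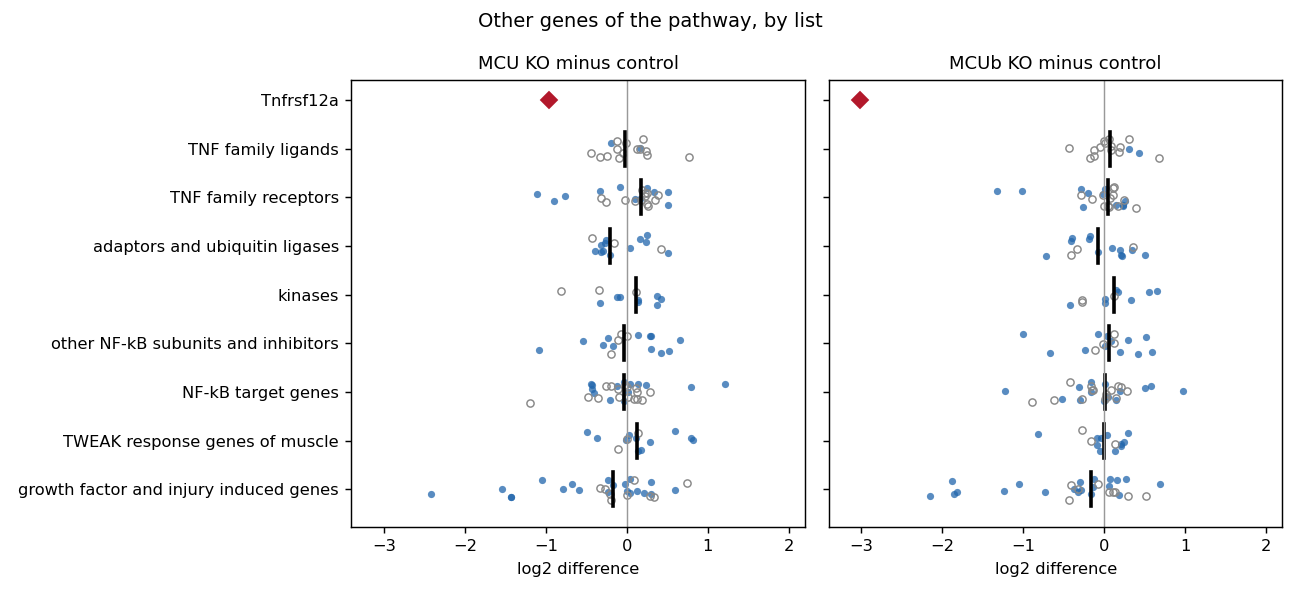
Log2 difference (horizontal axis) of each measured gene of the 8 pathway lists (rows) for MCU knockout minus control (left) and MCUb knockout minus control (right), with Tnfrsf12a as a red diamond on top; filled blue points were above background on at least 3 arrays, open grey points were not, and black bars mark list medians. The medians lie between -0.20 and 0.18. On the right Tnfrsf12a lies at -3.01, beyond every gene of the lists, in the comparison that chose it.

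Muscle genes known to respond to TWEAK did not pass either. Of 14 genes, all measured, 1 had an unadjusted p under 0.05 in the MCU knockout (7.14%, against 10.1% of all probe sets) and 0 in the MCUb knockout (against 8.11%). Fbxo32, the atrophy ligase atrogin, was at 0.82 in the MCU knockout (SE 0.29, adjusted p = 0.412) and -0.09 in the MCUb knockout (adjusted p = 0.952). Myod1, a myogenic factor, was at 0.79 in the MCU knockout (adjusted p = 0.536), with 7.21 and 7.86 on the MCU knockout arrays of high Y-linked level. In the MCUb knockout the array of high level, replicate 1, read 6.08, the lowest of its group. Replicate 3 of that group, of low level, read 6.99. On the 6 arrays of low level the Myod1 difference between MCU knockout and control was -0.23, where the MCU knockout keeps 1 array. Whether Myod1 follows the Y-linked level was not tested. Klf15, a metabolic transcription factor, was at -0.81 in the MCUb knockout (adjusted p = 0.619), and Slc2a4, the insulin-responsive glucose transporter, at 0.30 (SE 0.16, adjusted p = 0.645).

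Tnfrsf12a is itself a growth factor and injury induced gene, and the list of 29 such genes held the largest shares with an unadjusted p under 0.05. These were 6 of 29 (20.7%, against 10.1% of all probe sets) in the MCU knockout, 2 higher and 4 lower, and 5 of 29 (17.2%, against 8.11%) in the MCUb knockout, 2 higher and 3 lower. In the MCU knockout 8 of the 29 had groups that did not overlap with control (27.6%, against 13.4%), and in the MCUb knockout 6 (20.7%, against 12.8%). The list was drawn up with earlier results of these data known, and Xirp1, Ankrd1 and Ankrd2 are among its genes counted as lower. These shares are therefore no support for a pattern shared with Tnfrsf12a. Xirp1, an actin-binding protein of damaged or stretched muscle, read 11.66, 11.77 and 10.50 in control, 9.97, 9.91 and 9.76 in MCU knockout and 9.10, 9.40 and 9.78 in MCUb knockout. All knockout arrays lay below all controls, and as for Tnfrsf12a control replicate 3 was the lowest control. The differences were -1.43 (SE 0.31, adjusted p = 0.193) and -1.88 (SE 0.31, adjusted p = 0.163).

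Without control replicate 3 Xirp1 passed in both comparisons, at -1.84 (adjusted p = 0.0139) and -2.29 (0.00936). The immediate early gene Egr1, named after its value was seen because it then also passed in the MCUb knockout, was at -1.85 without that array (adjusted p = 0.0451) and at -0.73 with all arrays (0.791). It read 7.68, 7.51 and 4.26 in control and 5.70 to 5.78 in the MCUb knockout, where no array was above background. With array weights Xirp1 passed in the MCUb knockout (-2.06, adjusted p = 0.0334). Xirp1 passed under no other of the 18 alternatives. The stretch-responsive Ankrd2 was at -1.55 in the MCU knockout (SE 0.63, adjusted p = 0.455), with wide groups in each genotype, and Ankrd1 at -1.05 in the MCUb knockout (SE 0.33, adjusted p = 0.534).

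Tnfrsf12a was set beside the 5831 named genes above background on at least 3 arrays and with an SD over the arrays of at least 0.3. Pearson's r over the 9 arrays was highest for C2cd3 (0.95), a centriole protein, Tm4sf1 (0.91), a tetraspanin-like surface protein, Dhrs3 (0.88), which reduces retinal, Chd1 (0.87), a chromatin remodeller, and H3f3b (0.87), a histone. It was lowest for Adh1 (-0.96), the alcohol dehydrogenase that oxidises retinol, Cep85l (-0.90) and Crim1 (-0.88). These are the extremes of many genes over few arrays, and the points share the 3 genotypes. With each group's mean taken off, r was 0.81 for C2cd3 and -0.63 for Adh1, but 0.05 for Dhrs3, and it turned to 0.36 for Cep85l. From control to MCUb knockout the means went from 7.22 to 6.58 for C2cd3, from 12.40 to 11.11 for Tm4sf1, from 11.69 to 10.22 for Dhrs3 and from 11.13 to 13.06 for Adh1. These changes were smaller than that of Tnfrsf12a, but this is the comparison that chose Tnfrsf12a, so nothing is read from the ranking. Of the other 6 measured genes of the set, Nfkbiz had the highest r with Tnfrsf12a (0.70), which was -0.50 with group means taken off, and Nfkbia had -0.04.

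**Figure D5:**
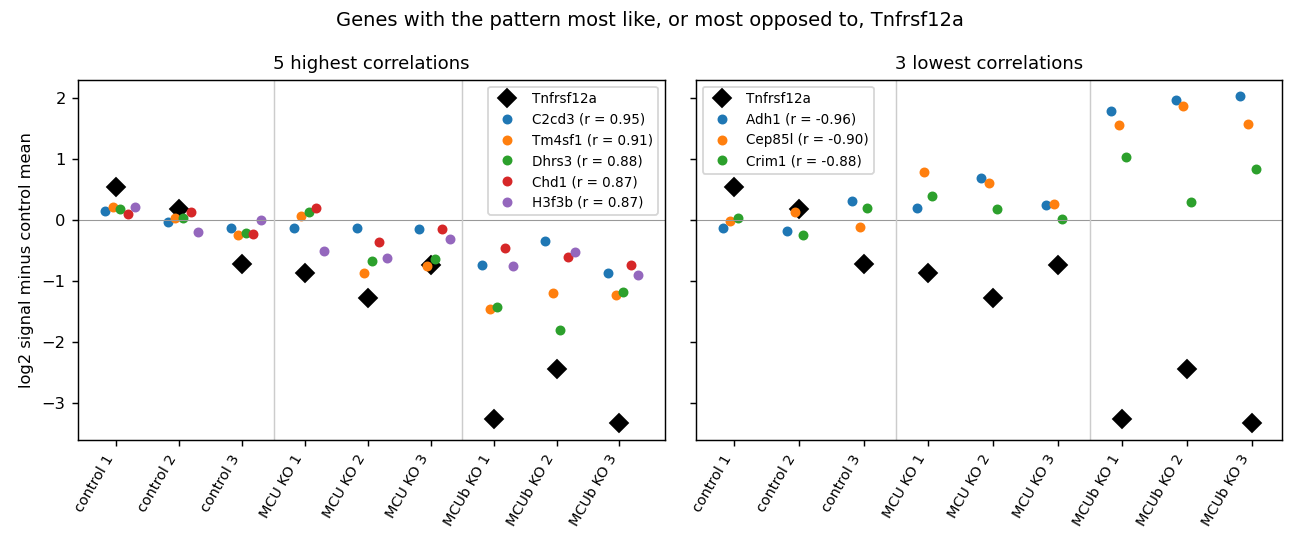
Log2 signal minus the control mean (vertical axis) on each array (horizontal axis) for Tnfrsf12a (black diamonds), the 5 genes with the highest correlation to it (left) and the 3 with the lowest (right), with Pearson's r over 9 arrays in the key. Tnfrsf12a drops furthest on the MCUb knockout arrays, on which it was chosen, and Adh1 and Cep85l lie highest there.

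The neighbours of Tnfrsf12a on chromosome 17 did not pass in either comparison with control. Thoc6 read 9.33 to 10.27 over the 9 arrays, with a mean of 9.66 ± 0.23 in control, 10.10 ± 0.11 in MCU knockout and 9.82 ± 0.47 in MCUb knockout (adjusted p of 0.569 and 0.872 against control). Its MCU knockout arrays, at 10.02 to 10.23, all lay above its control arrays, at 9.50 to 9.92. Groups did not overlap in 13.4% of all probe sets in that comparison. Hcfc1r1 lay at the background limit with means of 5.89, 5.79 and 5.71, and the claudin genes Cldn6 and Cldn9 were above background on no array.

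In whole muscle, less RNA per cell and fewer cells of a type cannot be told apart. Tnfrsf12a can be made by fibres, fibroblasts, endothelial and satellite cells, so the markers of these are given beside it. In no comparison did any marker of the 9 lists pass. Only 0.0225% to 0.158% of all probe sets passed, so this says little about the cells. The mean log2 level of 11 measured fibroblast markers was 9.14 to 9.93 on the control, 9.10 to 10.34 on the MCU knockout and 9.07 to 10.05 on the MCUb knockout arrays. For 11 endothelial and pericyte markers it was 9.08 to 10.03, 9.28 to 9.57 and 9.12 to 9.60, and for 12 fibre markers 17.84 to 18.27, 17.99 to 18.09 and 18.10 to 18.26. In each of these 3 lists the MCUb knockout range overlapped that of control. Of 10 satellite cell markers 4 were above background on no array, the defining Pax7 and Myf5 among them. The list stood at 6.38 to 6.49, 6.43 to 6.60 and 6.40 to 6.61.

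Few markers of immune cells, which carry much of the NF-kB pathway, were above background throughout. Of 10 measured macrophage markers 3 were above background on all 9 arrays and Cd14, C1qb and C1qc on none; the list ran from 6.32 to 6.89, 6.48 to 6.99 and 6.13 to 6.95. Of 9 lymphocyte markers 8, Cd3e, Cd8a and Cd79a among them, were above background on no array. The neutrophil list of 9 spread widely within groups, reaching 6.79 in control and 6.84 in MCUb knockout and at most 4.65 in MCU knockout; Elane, Csf3r and Cxcr2 were above background on no array. Of 5 Schwann cell and 9 adipocyte markers 3 each, Mbp and Plin1 among them, were above background on no array. Both lists were lower on every MCUb knockout array than on any control array: 5.46 to 5.77 against 5.83 to 5.99 for Schwann cells and 7.40 to 7.58 against 7.73 to 7.81 for adipocytes. In the MCU knockout they stood at 5.68 to 5.97 and 7.55 to 7.84. The Schwann cell means lay near the background limit in control and under it on every MCUb knockout array. Groups did not overlap between MCUb knockout and control in 12.8% of all probe sets, each read singly. How often means of lists separate was not tested. Whether Schwann cells or adipocytes were fewer in the MCUb knockout was not tested. The part of these cells in the differences of the pathway genes was not tested.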

How the data were processed

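Affymetrix Clariom S mouse arrays measured total RNA of 9 muscle samples, labelled with a 3′ IVT Pico kit per the labels' protocols. The deposited values are log2 signals per probe set, and the submitters' processing notes name Affymetrix Expression Console; version, summarisation, normalization and log base are not given in the sources used here, so reading the values as log2 rests on their range (2.46 to 19.9), and every fold rests on that reading. The median of an array was 5.51 to 5.60, lower than its background limit.

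Of 28846 values per array 6640 control features were left out. Symbols came from the platform annotation, updated by gene identifier through RefSeq (GRCm38.p6): 19572 of 22206 probe sets had 1 symbol, 0 several and 2634 none. Where a gene had several probe sets (55 genes), the one with the highest mean was read. The table's build was not named, so RefSeq served for names, chromosomes and gene order; promoter sequences and their coordinates are RefSeq's.

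Differences were fitted in R 4.3.3 with lmFit and eBayes of limma 3.58.1 (two-sided) as 3 group means over all 9 arrays, with 6 residual and 5.06 prior degrees of freedom, and Benjamini-Hochberg adjustment ran over 22206 probe sets, with a threshold of 0.05. The script was tested on simulated data. Depth does not apply to arrays, and the number of arrays limits the precision. Alternatives were quantile normalization, median centring, leaving out dim probe sets, a trended robust prior, array weights, 2-group fits, the replicate number as a block, the Y-linked level as a covariate, the arrays with a low such level, and each array left out. No gene of the set had a further probe set to try.

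By the naming rule, the text names the measured genes of the set, from each list the 2 genes of smallest p in each comparison with control (above background on at least 3 arrays, predicted genes skipped), the 5 highest and 3 lowest correlates of Tnfrsf12a, its 2 nearest measured neighbours on each side, and Mcu. Markers are named as members of their lists. The genes of the set and the lists were chosen with earlier results of these data known.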

Additional observations from a re-analysis of the deposited data

How the results depend on the processing

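Over 18 alternatives the log2 difference of Tnfrsf12a kept its sign in all 3 comparisons. Between MCU knockout and MCUb knockout it fell short of the threshold at 2.02 with median centring, 2.05 with the replicate block, 2.17 with the Y-linked covariate and 2.01 on the 6 arrays with a low Y-linked level, and lay between 1.89 and 2.33 with single arrays left out. The number of probe sets past the threshold between MCU knockout and control, 31, was 16 with the Y-linked covariate, 0 on the 6 arrays and 20 to 98 with single arrays left out. Between MCUb knockout and control, 5 became 1 in a fit of these groups alone, 0 on the 6 arrays and 0 to 20 with single arrays left out. Between the knockouts, 35 became 61 with array weights, 3 on the 6 arrays and 13 to 43 with single arrays left out. Of the pathway lists 1 gene passed after quantile normalization and 0 to 1 with single arrays left out (MCU knockout), and 1 with array weights and 0 to 2 with single arrays left out (MCUb knockout).

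No gene whose sign turned was past the threshold. With the Y-linked covariate Nfkbia was 0.063 between MCU knockout and control and 0.017 between the knockouts; on the 6 arrays these were 0.33 and 0.34, Rela between the knockouts was -0.077 and Myod1 between MCU knockout and control -0.23. With single arrays left out, the difference between MCU knockout and control ran from -0.25 to 0.78 for Traf2 (-0.17 without MCU knockout replicate 1), from -0.071 to 0.17 for Rela (-0.03 without control replicate 3), from -0.39 to 0.031 for Nfkbia, from -0.055 to 0.33 for Tnfsf14 and from -0.98 to 0.37 for Tnfsf10. That between MCUb knockout and control ran from -0.36 to 0.998 for Tnfsf10. Between the knockouts it ran from -0.11 to 0.93 for Traf2, from -0.092 to 0.15 for Rela and from -0.33 to 0.062 for Nfkbia. The causes were not tested.

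Samples with the same replicate number did not deviate together (correlations of -0.17 to 0.08). Pairs of unlike number were not set beside them, so this cannot show whether samples were paired by design. With the replicate number as a block, the adjusted p of Tnfrsf12a between the knockouts was 0.103 in limma. Signals at or under background limit what can be said of Relb, Nfkbiz and 52 of the 152 pathway genes. Relb and these 52 were above background on no array, and Nfkbiz on control replicate 3 alone.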
